A study of Mus musculus with 2 samples.

Results

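Chemokine-high microglia were taken here as cells with at least 5 UMIs (unique molecular identifiers, each marking 1 captured RNA molecule) of Ccl3 and Ccl4 together. They numbered 96 of 7903 singlets, the droplets that carried the hashtag of 1 sample only, or 1.21%. A singlet had at least 500 genes, at least 1000 gene UMIs and at most 10% mitochondrial UMIs. Cells with 4 or more UMIs of Lpl, Lgals3, Itgax and Cst7 together, genes of lipid-associated activated microglia, were left out. So were cells with 5 or more UMIs of the immediate early genes Fos, Egr1, Ier2, Dusp1 and Atf3. Of 203 singlets that reached the chemokine count, 97 were left out for immediate early counts and 13 for the Lpl set, with 3 cells in both, which left 96. Because these 11 genes chose the cells, their levels in these cells are given as a description and were not tested. Ccl3 and Ccl4 were tested only between TAM and Oil, a contrast the rule did not use. The main test took all singlets, and an alternative took those passing both exclusions, which belong to the rule.

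Ccl3 and Ccl4 (also called MIP-1α and MIP-1β) are small secreted chemokines of the CC family. They are induced by NF-κB and related signalling in macrophages, act through chemokine receptors, and draw monocytes and lymphocytes towards their source. In brain tissue microglia are a main source of both, and the 2 genes are also known to be switched on when microglia are handled during dissociation, together with immediate early genes.

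The cells came from perfused brains of 12-week-old mice heterozygous for Cx3cr1CreERT2(Litt), an allele that drives tamoxifen-inducible Cre from the Cx3cr1 gene, and were sorted for surface CD11b and CD45 while Ly6G+ and CD206+ cells were gated out. Mice had tamoxifen (TAM) for 4 weeks or the oil vehicle (Oil), and every mouse of both groups carried the Cre allele. TAM cells bore the hashtags TAM1 to TAM5 and Oil cells Oil1 to Oil5, all in 1 droplet pool with 1 gene expression and 1 hashtag library that share 9975 barcodes. Hashtags were the replicates (n = 5 per treatment), and because the labels do not say that each was a separate mouse, p-values cover at most the spread from hashtag to hashtag, possibly technical. By Xist, TAM1, TAM2, Oil1 and Oil2 were male and the others female. Each hashtag held 619 to 935 singlets in TAM and 644 to 910 in Oil, with a median depth per cell of 4806 to 5050 UMIs in TAM and 4826 to 5046 in Oil.

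The label of microglia held for these cells. All 96 had a UMI of at least 8 of 14 microglial markers, with a median of 13, against a median of 14 in the other singlets. Cx3cr1 and P2ry12, the fractalkine and ADP receptors of microglia, were detected in every one of them. Several markers of other cells were at 0: Lyve1, Cd163, Pf4 and Ms4a7 of border macrophages, Ly6c2, Chil3 and Fn1 of monocytes, S100a8 and S100a9 of neutrophils, and all 10 markers of T and NK cells. The sort had gated out Ly6G+ and CD206+ cells, so zeros of neutrophil and border macrophage markers may come from the sort. Of the monocyte list 6 of 10 genes were at 0 and its summed level was 0 in every TAM hashtag and 0 to 32.9 CPM (UMIs per 1000000 UMIs) in the Oil hashtags, against 6.31 to 48.3 CPM in other singlets. Border macrophage markers had 8 of 10 genes at 0 and summed to 0 to 341 CPM in TAM and 188 to 445 CPM in Oil, against 254 to 309 CPM in other singlets. Other listed markers were common in both classes: Csf3r of the neutrophil list was in 82.3% of chemokine-high cells and 80.2% of other singlets. For Stab1 of border macrophages these were 64.6 and 66.6%, for Ighm of B cells 54.2 and 49.2%, and for Slc1a3 of astrocytes 70.8 and 64.5%. None of the markers tested for these or for the neutrophil, B cell, astrocyte, oligodendrocyte and vascular lists passed the test against other singlets.

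Ccl4 (ENSMUSG00000018930, chr11:83662584-83664683, plus strand) made up most of the count that chose the cells, and Ccl3 (ENSMUSG00000000982, chr11:83647844-83649355, minus strand) lies beside it on GRCm38, with 13228 bases between the 2 genes. Ccl4 was detected in 93 of the 96 cells and Ccl3 in 44, with both in 41. In 6 cells Ccl3 UMIs outnumbered Ccl4 UMIs. The summed count was just 5 in 20 cells, at or above 10 in 29 and at or above 30 in 4, while 32 singlets that passed both exclusions had a sum of 4, just under the threshold. Those 4 cells of the highest counts lay in TAM4, with 94 Ccl4 and 15 Ccl3 UMIs, in Oil4, with 40 and 38, in Oil3, with 40 and 2, and in Oil1, with 23 and 8. The plot of single cells shows a low and even count in most cells, with a few far above it.

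**Figure D1:**
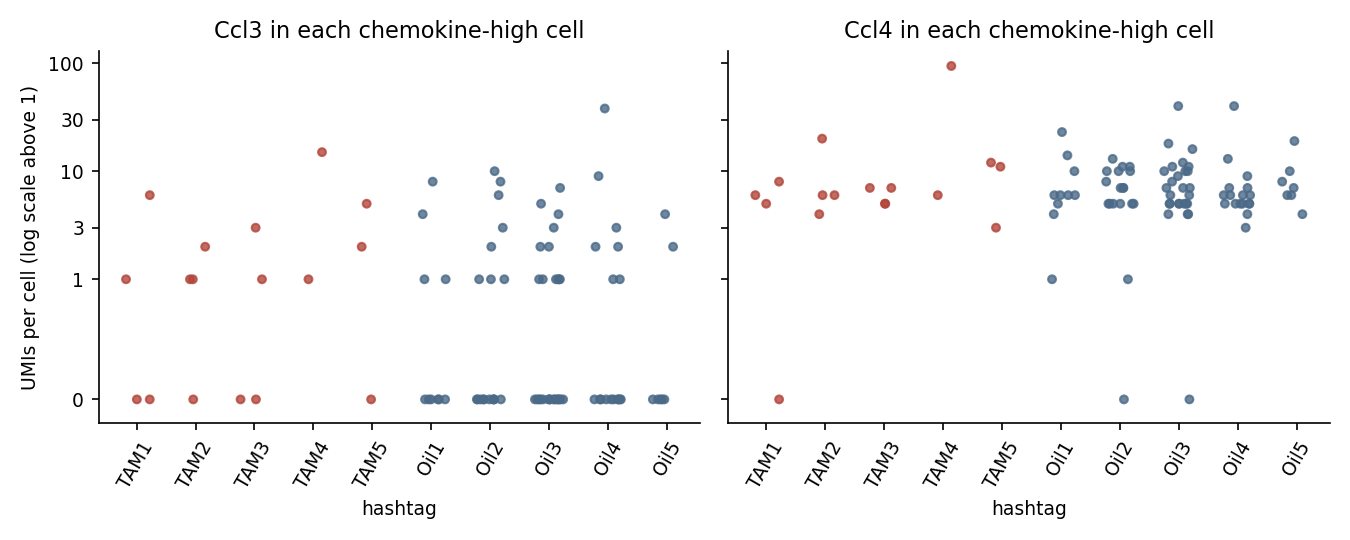
Ccl3 (left) and Ccl4 (right) UMIs in each of the 96 chemokine-high cells by hashtag, TAM in red and Oil in blue, on an axis that is logarithmic above 1. Ccl4 was detected in 93 cells and Ccl3 in 44, and the highest point is the TAM4 cell with 94 Ccl4 UMIs.

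Singlets with few microglial markers were taken as a rough gauge of free RNA in the droplets. Of 7747 singlets with a UMI of 8 or more microglial markers, 7.82% had a Ccl4 and 5.47% a Ccl3 UMI at a median depth of 4950 UMIs. Among the 156 with 7 or fewer markers, 3 (1.92%, 95% exact binomial interval 0.398 to 5.52%) had any Ccl4 UMI and 0 had a Ccl3 UMI (upper limit 2.34%), at a median of 1474.5 UMIs. In these 156 cells 0 reached a summed count of 5. Depths differ between the 2 kinds of cell, so the comparison does not separate free RNA from low depth, and intervals cover counting error only.

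Chemokine transcripts were concentrated in few cells. The 96 chemokine-high cells held 21.5% of 3928 Ccl4 UMIs and 13.5% of 1301 Ccl3 UMIs of all singlets. The 107 cells left out by the exclusions held 60.3% of Ccl4 and 55.6% of Ccl3 UMIs, with up to 232 Ccl4 and 108 Ccl3 UMIs in 1 cell. The 7700 cells below the threshold held 18.3% and 30.9%. The 5 cells of a hashtag with the largest summed Ccl3 and Ccl4 count held 80.6 to 86.3% of Ccl4 UMIs in TAM. In the Oil hashtags they held 19.3 to 71.3%. TAM hashtags had 3 to 13 cells with a sum of 5 or more and Oil hashtags 9 to 52, so a fixed 5 cells cover more of them in TAM.

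Promoter sequences of the chemokine Ccl3, of Ccl12, which passed the test below, and of Nfkbia, the NF-κB inhibitor that NF-κB itself induces, show how the letters of an NF-κB site are placed upstream of these 3 genes. Each is the 250 bases before the transcript start in RefSeq (GRCm38.p6), 5′ to 3′ on the gene's strand, in lower case. Capitals mark matches of GGNNNTTCC on either strand, a loose form of the NF-κB site. Ccl3 is at chr11:83649379-83649628 (minus), Ccl12 at chr11:82101595-82101844 (plus) and Nfkbia at chr12:55492648-55492897 (minus).
Ccl3: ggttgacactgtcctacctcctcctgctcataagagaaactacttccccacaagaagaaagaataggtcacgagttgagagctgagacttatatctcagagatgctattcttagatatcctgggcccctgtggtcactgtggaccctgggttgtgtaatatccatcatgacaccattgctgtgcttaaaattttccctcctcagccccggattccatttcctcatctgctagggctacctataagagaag
Ccl12: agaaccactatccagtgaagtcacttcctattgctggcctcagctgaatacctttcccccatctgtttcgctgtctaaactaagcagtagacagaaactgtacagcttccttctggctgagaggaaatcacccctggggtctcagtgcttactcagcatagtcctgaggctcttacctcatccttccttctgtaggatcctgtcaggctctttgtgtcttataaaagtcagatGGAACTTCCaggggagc
Nfkbia: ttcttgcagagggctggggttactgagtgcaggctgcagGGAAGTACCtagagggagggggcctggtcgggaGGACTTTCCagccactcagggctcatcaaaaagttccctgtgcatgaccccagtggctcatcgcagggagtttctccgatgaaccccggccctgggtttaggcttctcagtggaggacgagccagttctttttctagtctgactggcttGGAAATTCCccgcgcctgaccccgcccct
Nfkbia holds 3 matches, Ccl12 has 1 just before its start and Ccl3 has 0 in this window. Of 27025 promoters of this length, 15.6% hold at least 1 match. The AP-1 letters TGANTCA are in none of the 3 and in 6.87% of all, and TATAAA is in the Ccl12 window and in 13% of all. A match is a description of letters, and 0 matches says nothing of whether the factor acts on Ccl3.

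Chemokine-high cells were rarer after TAM than after Oil. They made up 0.460, 0.646, 0.428, 0.247 and 0.385% of singlets in TAM1 to TAM5, which are 4, 4, 4, 2 and 3 cells, against 1.42, 2.80, 2.97, 2.14 and 0.835% in Oil1 to Oil5, which are 10, 18, 27, 17 and 7 cells. The highest TAM hashtag lay below the lowest Oil hashtag, Oil5, whose share was nearest to the TAM range. The mean share was 0.433 ± 0.144% in TAM and 2.03 ± 0.905% in Oil (SD, n = 5 each), a difference of -1.60 percentage points (exact two-sided permutation test, p = 0.00794, the smallest that 5 against 5 can give). Exact binomial 95% intervals of single hashtags reached from 0.030 to 1.65% in TAM and from 0.336 to 4.38% in Oil and overlapped between groups. With hashtags of the same number paired, the share was lower in TAM in 5 of 5 pairs (exact sign-flip permutation test, p = 0.0625, the smallest that 5 pairs can give).

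The share of cells with 5 or more immediate early UMIs moved with treatment in the same direction, and its part in the difference was not tested. It was 0.247 to 2.07% in TAM and 2.86 to 47.7% in Oil, highest in Oil1 at 47.7%. Oil1, Oil2 and Oil3 had the 3 highest immediate early shares. Without them the difference in chemokine-high share was -1.05 points (exact permutation test, p = 0.0476, the smallest that 5 against 2 can give), and the immediate early shares of Oil4 and Oil5, 8.69 and 2.86%, remained above every TAM hashtag. Among only the singlets that pass both exclusions, chemokine-high cells were 0.444 ± 0.150% in TAM and 2.73 ± 1.24% in Oil (SD, n = 5 each), again without overlap (exact p = 0.00794). With the exclusions dropped, cells of 5 or more chemokine UMIs were 0.960 ± 0.435% in TAM and 4.28 ± 1.98% in Oil (exact permutation test, p = 0.0317), and the groups overlapped. With each cell thinned to 3000 UMIs and a threshold of 3, the shares were 0.548 ± 0.145% in TAM and 2.31 ± 1.33% in Oil (exact permutation test, p = 0.0238), and the groups overlapped, against 0.475 ± 0.160% in TAM and 2.13 ± 0.931% in Oil unthinned in the same cells. The groups also overlapped at a threshold of 3 UMIs, with 0.658 ± 0.228% in TAM and 3.66 ± 1.89% in Oil (exact permutation test, p = 0.0159), and of 10 UMIs, with 0.108 ± 0.110% in TAM and 0.642 ± 0.469% in Oil (exact permutation test, p = 0.0238). By sex the difference was -1.55 points in the 2 TAM and 2 Oil male hashtags and -1.63 points in the 3 and 3 female ones, designs whose smallest exact permutation p-values are 0.333 and 0.1.

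**Figure D2:**
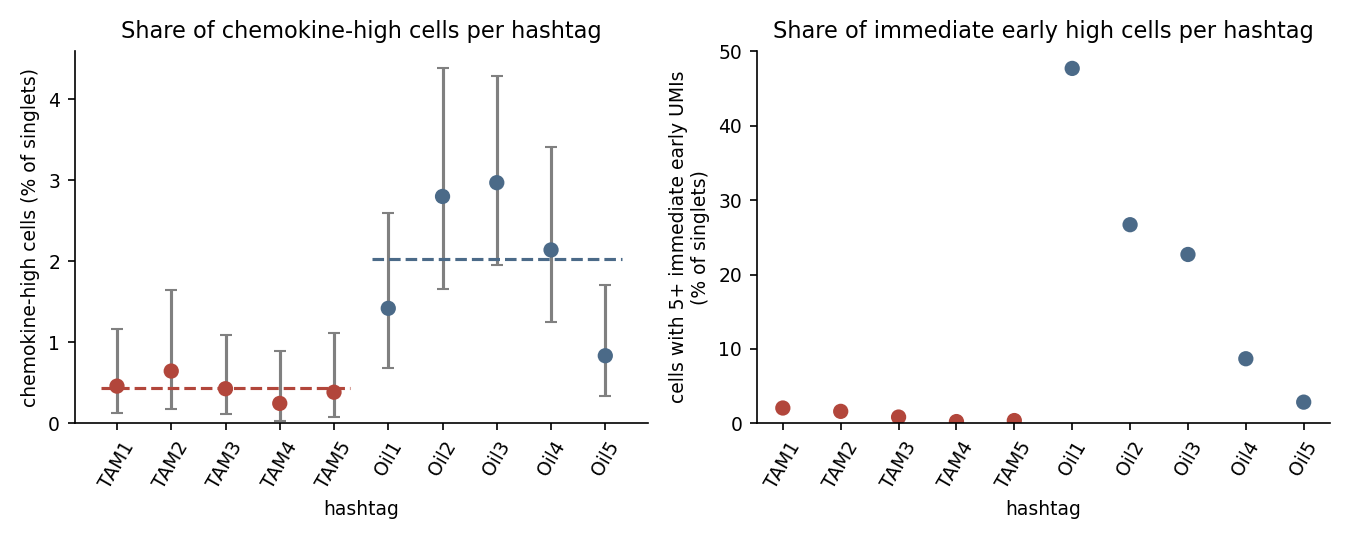
Left, chemokine-high cells as a percentage of singlets per hashtag, with exact binomial 95% intervals and dashed lines at the treatment means of 0.433% (TAM) and 2.03% (Oil). Right, the percentage of singlets with 5 or more UMIs of the 5 immediate early genes, which spans 0.247 to 2.07% in TAM and 2.86 to 47.7% in Oil.

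Summed over all singlets, the transcripts differed less than the cell share. Ccl4 was at 93.3, 116, 129, 34.5 and 14.8 CPM in TAM1 to TAM5, against 159, 147, 130, 126 and 48.9 CPM in Oil1 to Oil5. These ranges overlap, and TAM5 and Oil5 were the lowest hashtags of TAM and of Oil. The log2 fold change was -0.68 ± 0.39 (SE) for Ccl4 and -0.37 ± 0.33 for Ccl3, with adjusted p-values of 0.364 and 0.593 by edgeR's quasi-likelihood test with Benjamini-Hochberg adjustment over 11238 genes, of which 4.62% passed. With the hashtag number as a replicate block Ccl4 passed (-0.79, adjusted p = 0.00927) and Ccl3 did not (-0.41, adjusted p = 0.134). With the immediate early level of the hashtag as a covariate, the signs turned to 0.39 and 0.55 and neither passed (adjusted p = 0.823 and 0.658). That level, a mean log2 CPM, was 4.11 to 4.88 in TAM and 4.67 to 5.80 in Oil. Only TAM2 lay above the lowest Oil hashtag, so this fit can hardly separate the level from treatment. On their own, sums over all singlets cannot tell fewer cells of a type from less RNA per cell, so the cell share and the level within chemokine-high cells are given separately.

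Within the chemokine-high cells themselves, the ranges of the 2 genes overlapped between treatments. Ccl4 was at 834, 1470, 1010, 12500 and 1480 CPM in TAM1 to TAM5, against 1440, 1280, 1680, 1500 and 1410 CPM in Oil1 to Oil5. TAM4 stands out through the cell with 94 Ccl4 UMIs, TAM2 and TAM5 lay within the Oil range, and TAM1 and TAM3 lay below every Oil hashtag. Ccl3 was at 307, 164, 169, 2000 and 397 CPM in TAM1 to TAM5 and at 249, 326, 207, 613 and 141 CPM in Oil1 to Oil5, again with TAM4 highest. The rule fixed a minimum for these values, so they got no test.

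Against all other singlets, chemokine-high cells had higher levels of the activation marker Cd83, of the tetraspanin Cd9 and of the protease Ctsb, and lower levels of Siglech. Ccl12, Ccl2 and Cxcl16 were also higher, but each lost its call under at least 1 alternative given below. Raw UMIs were summed per hashtag for chemokine-high and for other cells and compared with edgeR's quasi-likelihood test with the hashtag as a block and Benjamini-Hochberg adjustment. For leading genes such as Cd83 and Ccl2 its p-values are close to those of a normal curve, so the spread was in effect shared across genes. A gene's own spread between hashtags or cells thus counts little, and a gene carried by 1 cell can reach a small p. Below, values such as 0.92 ± 0.11 are log2 fold changes with SE, chemokine-high over other singlets, and levels are in CPM. Of 9516 genes 99 passed at an adjusted p below 0.05 (1.04%), 80 higher (0.841%) and 19 lower (0.2%), and 798 had an unadjusted p below 0.05. The split by direction depends on the scaling. The values here use TMM factors from the pooled sums of each class, and 80.8% of calls were higher. With TMM factors for each summed library, which shift the median of all genes by -0.23 on the log2 scale, 170 genes passed and 25.3% of them were higher, with 62 genes shared. DESeq2 called 39 genes, 38 of them among the 99. Against only those other singlets that pass both exclusions, 100 of 8405 genes passed (1.19%), 82 of them shared.

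Cd83, a surface immunoglobulin-family protein of activated antigen-presenting cells and an NF-κB target, had the smallest p-value. Its summed level was 483, 450, 126, 1370 and 170 CPM in the chemokine-high cells of TAM1 to TAM5 and 196, 235, 250, 153 and 1320 CPM in those of Oil1 to Oil5, against 58.6 to 99.5 CPM in the other singlets of the 10 hashtags. The lowest chemokine-high value lay above the highest value of other singlets, and TAM4 and Oil5 stood far above the rest. The log2 fold change was 2.17 ± 0.18 (SE, adjusted p = 4.7e-28, higher in 10 of 10 hashtags). A UMI of Cd83 was in 46 of the 96 cells, and 29 of its 178 UMIs came from 1 Oil5 cell. Without Oil5 the log2 fold change was 1.73 and without any single hashtag it stayed within 1.73 to 2.31.

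The other genes of the 10 with the smallest p that were higher in 10 of 10 hashtags are given by their known roles, a grouping made after their values were seen. Cd9, a tetraspanin, had a lowest, median and highest level of 1230, 1570 and 2350 CPM in chemokine-high cells and of 739, 880 and 918 CPM in other singlets, so the classes did not overlap (log2 fold change 0.92 ± 0.11, adjusted p = 2.1e-13). Ctsb, the lysosomal protease cathepsin B, was at 1020 to 2630 CPM against 847 to 977 CPM (0.80 ± 0.11). Atp6v0c, a subunit of the proton pump that acidifies lysosomes, was at 500 to 1500 CPM against 344 to 433 CPM (0.85 ± 0.13). Slc15a3, a lysosomal peptide and histidine transporter, was at 170 to 499 CPM against 97.3 to 210 CPM (0.95 ± 0.18). Snx24, of the sorting nexin family, was higher by 0.74 ± 0.16, and in Oil hashtags alone it did not pass (0.36, adjusted p = 0.665). These 5 genes passed edgeR's test, with adjusted p-values from 2.1e-13 to 5.12e-04.

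Olfr111, an olfactory receptor gene, was at 53.4 to 307 CPM in chemokine-high cells and 22.8 to 43.6 CPM in other singlets (log2 fold change 1.85 ± 0.27). Reads of Olfr111 may be shared with its close copy Olfr110 (2.15 ± 0.34, higher in 8 of 10 hashtags), so how the pair divides is uncertain. Id2, an inhibitor of helix-loop-helix transcription factors, was higher by 1.5 ± 0.27, Bcl2a1b, a survival factor of the Bcl2 family with near-identical copies, by 0.87 ± 0.17, and the RNA helicase of translation initiation Eif4a1 by 0.76 ± 0.16. Their adjusted p-values by edgeR's test ran from 1.17e-08 for Olfr111 to 6.48e-04 for Eif4a1. For Id2 the chemokine-high cells of TAM1, TAM3, TAM4 and TAM5 held 1 UMI each, so its higher level in those hashtags rests on that UMI.

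**Figure D3:**
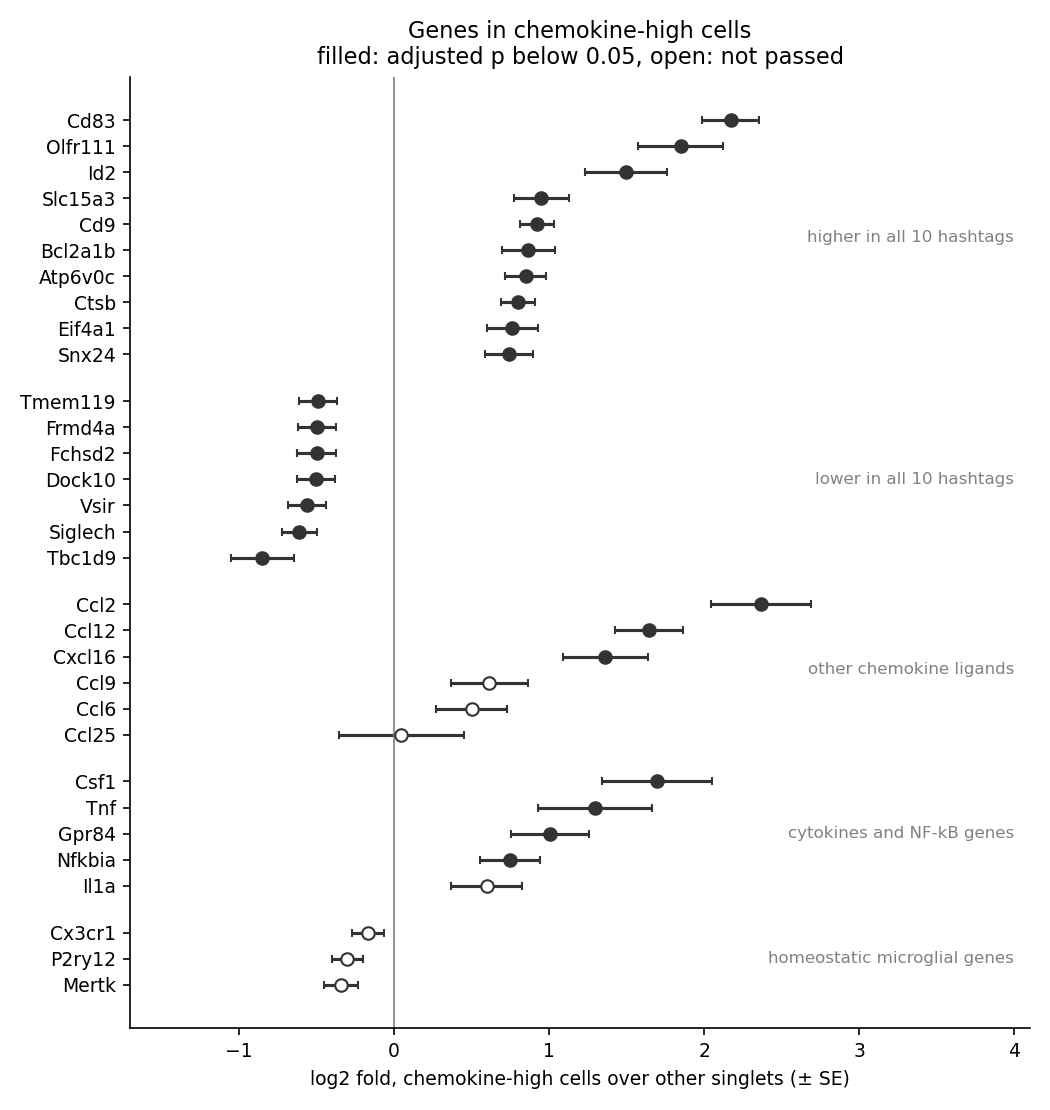
Log2 fold change of named genes in chemokine-high cells over other singlets (points, with SE bars), filled where the adjusted p of edgeR's test was below 0.05. Cd83 (2.17) and Ccl2 (2.37) lie farthest to the right, and Siglech (-0.61) and Tbc1d9 (-0.85) are below 0.

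Other chemokine ligands went up in part. Of 21 ligands in the list 2 chose the cells, 6 others had counts enough to test, 3 passed and all 3 were higher, against 0.841% of all genes. The median log2 fold change of the 6 was 0.99, against 0.003 over all genes tested. The 9 ligands at 0 UMIs in chemokine-high cells included Cxcl1, Cxcl2 and Cxcl9.

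Ccl12 (chr11:82101845-82103400), a monocyte-attracting ligand of Ccr2, was at 43.9, 81.8, 295, 749 and 908 CPM in chemokine-high cells of TAM1 to TAM5 and at 53.4, 91.8, 586, 54.8 and 118 CPM in those of Oil1 to Oil5, against 42.6 to 83.1 CPM in other singlets. TAM3, TAM4, TAM5 and Oil3 had the highest values, TAM1, TAM2, Oil1 and Oil4 lay within the range of other singlets, and 60 of the 136 UMIs came from 1 Oil3 cell. The log2 fold change was 1.64 ± 0.22 (edgeR, adjusted p = 1.17e-10, higher in 7 of 10 hashtags), it was 1.23 without Oil3, and by DESeq2 it was 1.35 and did not pass (adjusted p = 0.314).

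Ccl2 (chr11:82035571-82037453), the principal ligand of Ccr2, was at 0, 0, 42.1, 2870 and 170 CPM in chemokine-high cells of TAM1 to TAM5 and at 0, 51.0, 50, 54.8 and 47.0 CPM in those of Oil1 to Oil5, against 3.40 to 33.0 CPM in other singlets. TAM4 is far above the others, with 21 of the 46 UMIs in 1 of its 2 cells. The log2 fold change of 2.37 ± 0.32 (edgeR, adjusted p = 2.6e-10) fell to 1.09 and did not pass without TAM4 (adjusted p = 0.278), nor did it by DESeq2 (1.21, adjusted p = 0.939). Cxcl16, the membrane-bound ligand of Cxcr6, was at 42.1 to 259 CPM against 32.1 to 58.3 CPM (1.36 ± 0.28, adjusted p = 2.45e-04, higher in 8 of 10) and missed the threshold without Oil4 (1.12, adjusted p = 0.0534). Ccl9 (0.61 ± 0.25), Ccl6 (0.50 ± 0.23) and Ccl25 (0.05 ± 0.41) did not pass.

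Chemokine receptors gave no call. None of 5 tested chemokine receptors passed edgeR's test, with log2 fold changes of -0.61 ± 0.53 for Ccr1, a receptor of Ccl3, and -0.17 ± 0.10 for Cx3cr1 (adjusted p = 0.86 and 0.719).

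Cytokines gave 2 of 9 tested genes higher, against 0.841% of all genes. Csf1, the growth factor of microglia and macrophages, was at 0 to 175 CPM in chemokine-high cells and 11.7 to 26.0 CPM in other singlets (log2 fold change 1.69 ± 0.35, adjusted p = 4.71e-04), and 12 of its 34 UMIs were in the Oil4 cell with 78 chemokine UMIs. Without Oil4 the log2 fold change of Csf1 was 1.06 (adjusted p = 0.409, not passed). Tnf, the inflammatory cytokine, just passed (1.3 ± 0.37, adjusted p = 0.0435) with 29 of its 30 UMIs in Oil cells, was higher in 5 of 10 hashtags, and did not pass by DESeq2 (adjusted p = 0.446). Il1a (0.60 ± 0.23, adjusted p = 0.304) and Il6 (-2.23 ± 0.82, adjusted p = 0.239, 2 UMIs) did not pass.

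Of 22 tested NF-κB subunits and feedback genes 5 were higher and none lower by edgeR's test, against 0.841% and 0.2% of all genes. Beside Cd83 and Bcl2a1b they were Gpr84, a receptor for medium-chain fatty acids (1.01 ± 0.25, adjusted p = 0.011), Nfkbia (0.75 ± 0.20, adjusted p = 0.0196) and Relb, a subunit of the alternative NF-κB pathway (1.13 ± 0.32, adjusted p = 0.0464). The median of the list was 0.52, against 0.003 over all genes. Gpr84 and Nfkbia did not pass without Oil5 (0.34 and 0.44, adjusted p = 0.922 and 0.652), and in Gpr84 19 of 69 UMIs were in 1 Oil5 cell.

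No immediate early gene outside the rule passed: of 17 tested, 0 were called by edgeR's test, with a list median of 0.10. Jun, a subunit of AP-1, was at 84.3 to 1900 CPM in chemokine-high cells and 167 to 1770 CPM in other singlets (0.35 ± 0.13, adjusted p = 0.249). Against the singlets that pass both exclusions, 2 of 13 passed, Jun (0.54, adjusted p = 0.00371) and Ier3 (1.63, adjusted p = 0.00651). The reference of all other singlets holds the cells rich in immediate early genes, and the rule removed those from the chemokine-high cells.

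Disease-associated microglial genes, a set known from plaque-associated and demyelination-associated microglia, were higher in 7 of 18 tested genes and lower in none, against 0.841% and 0.2% of all genes, with a median of 0.35 against 0.003 over all genes. Beside Cd9, Ctsb and Csf1 these were Cd63, a lysosomal tetraspanin (1.14 ± 0.14, adjusted p = 5.61e-13, higher in 9 of 10 hashtags), Ank, a pyrophosphate and citrate transporter (1.56 ± 0.26, adjusted p = 6.36e-07), Ctsz, cathepsin Z (0.64 ± 0.11, adjusted p = 4.19e-06), and Cd68, a lysosomal membrane protein (0.50 ± 0.14, adjusted p = 0.0361). Apoe, the lipid carrier, was at 125 to 1930 CPM in chemokine-high cells and 303 to 751 CPM in other singlets and did not pass (0.34, adjusted p = 0.32). Cells rich in Lpl, Lgals3, Itgax and Cst7, which also belong to this state, had been left out by the rule.

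Genes outside the lists were also among the calls, and those named here were picked after their values were seen. Plaur, the urokinase receptor, was at 0 to 250 CPM in chemokine-high cells and 8.26 to 15.1 CPM in other singlets (2.48 ± 0.34, adjusted p = 5.48e-10, higher in 8 of 10). Gas2l3, a cytoskeletal linker protein, was at 0 to 126 CPM against 2.51 to 12.6 CPM, with 23 UMIs in 14 cells (3.19 ± 0.39). In other singlets it reached the level of the count filter in too few hashtags. It entered the test only through the chemokine-high sums, where it is high, so its p-value is no support and is not given. The complement receptors C5ar1 (1.19 ± 0.23, adjusted p = 8.45e-05) and C3ar1 (0.76 ± 0.16, adjusted p = 3.73e-04) were both higher, as was Hif1a, the oxygen-sensing transcription factor (1.06 ± 0.20, adjusted p = 2.71e-05). Cdkn1a, the cell cycle inhibitor p21, was called (1.79 ± 0.29, adjusted p = 3.83e-07) but was higher in only 5 of 10 hashtags, and 20 of its 50 UMIs came from 1 TAM4 cell.

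Interferon response genes gave 3 of 11 tested genes higher, against 0.841% of all genes, each through few cells. Ifitm3 (1.89 ± 0.38, adjusted p = 1.71e-04) had 10 of 28 UMIs in 1 Oil5 cell and did not pass without Oil5 (0.90, adjusted p = 0.736). Ifit3, an antiviral effector with a near-identical copy, had 18 of 20 UMIs in 1 Oil3 cell, and its log2 fold change of 1.81 turned to -0.38 without Oil3. Ifi204, a DNA sensor, had 16 of 20 UMIs in 1 Oil3 cell and did not pass without Oil3 (0.28, adjusted p = 0.976). None of 5 cell cycle genes and none of 7 calcium and MAPK feedback genes passed.

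**Figure D4:**
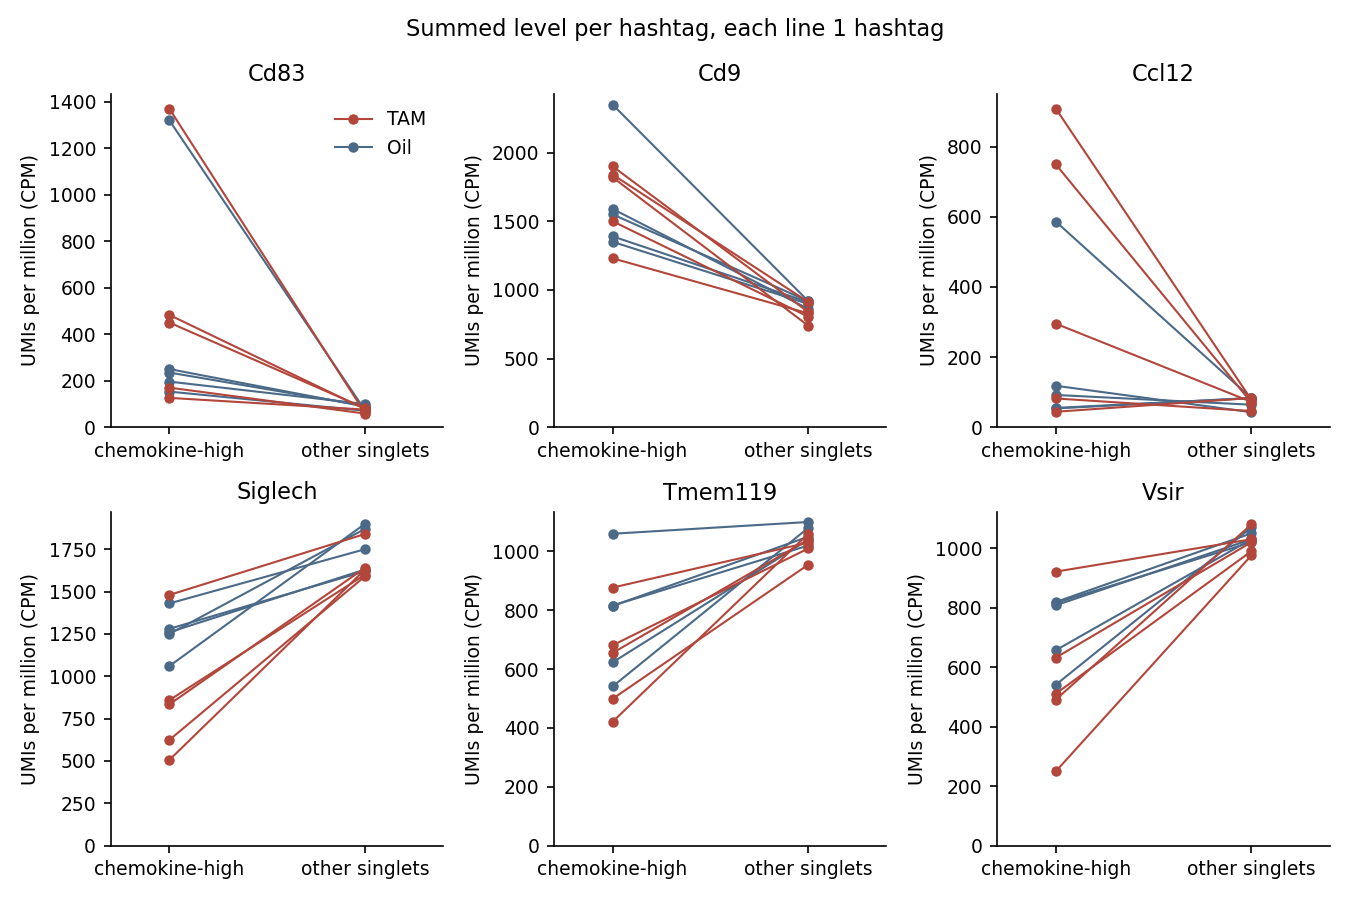
Summed level (CPM) of 6 genes in the chemokine-high cells and in the other singlets of each hashtag, joined by a line, TAM in red and Oil in blue. Every line goes down to the right for Cd83 and Cd9 and up for Siglech, Tmem119 and Vsir, while for Ccl12 3 of 10 lines go up.

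Of 26 tested homeostatic microglial genes, 2 were lower, against 0.2% of all genes, none was higher and the median was -0.07, against 0.003 over all genes. The summed level of the list was 91400 CPM in chemokine-high cells and 89800 CPM in other singlets. Siglech, a sialic acid-binding surface lectin of microglia, was at 834, 859, 506, 624 and 1480 CPM in chemokine-high cells of TAM1 to TAM5 and 1260, 1280, 1430, 1250 and 1060 CPM in those of Oil1 to Oil5, against 1590 to 1900 CPM in other singlets. No chemokine-high value reached the range of other singlets, and 4 of the 5 TAM values lay below every Oil value (log2 fold change -0.61 ± 0.11, adjusted p = 2.43e-05). Tmem119, a microglial membrane protein, was at 421 to 1060 CPM against 955 to 1100 CPM (-0.49 ± 0.12, adjusted p = 0.0122) and missed the threshold without TAM3, Oil1 or Oil5 (adjusted p = 0.0605 to 0.0695). P2ry12 (-0.30 ± 0.10, adjusted p = 0.134) and Mertk, a receptor for dying cells (-0.34 ± 0.11, adjusted p = 0.117), did not pass.

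Other genes that were lower in all 10 hashtags included Vsir, the checkpoint protein VISTA, at 250 to 921 CPM in chemokine-high cells and 976 to 1080 CPM in other singlets (-0.56 ± 0.13, adjusted p = 0.00182). Tbc1d9 (-0.85 ± 0.20), Frmd4a (-0.50 ± 0.12), Dock10, an activator of small GTPases (-0.50 ± 0.12), and Fchsd2, an endocytic adaptor (-0.50 ± 0.13), also passed edgeR's test, with adjusted p-values of 0.00516 to 0.0146. Frmd4a, Dock10 and Fchsd2 missed the threshold without Oil5 (adjusted p = 0.0758 to 0.102), and Fchsd2 also without TAM3 (0.0749). Cenpp and Rac3 had 0 UMIs in chemokine-high cells, against 19.6 and 15.1 CPM in other singlets. With UMIs taken as independent, 3 counts over the 96 cells put them at least 3.43-fold and 2.64-fold lower. Only 4.41% of other singlets had a UMI of Cenpp and 6.99% of Rac3. At that rate few of 96 cells would carry either, and by cells the bounds would be looser. With 0 UMIs throughout, a lower level in all 10 hashtags follows by itself. Tlr12 had 1 UMI, a ratio of 0.0893 to other singlets (95% counting interval 0.00226 to 0.497), and H2-Eb1, the 1 of 5 tested MHC class II genes that passed, likewise 1 UMI (ratio 0.0776, 0.00196 to 0.432). The intervals take UMIs as independent, and by cells H2-Eb1 was not rarer, with a UMI in 1.04% of chemokine-high cells and 0.64% of other singlets. Cenpp, Rac3, Tlr12 and H2-Eb1 each lost the call without at least 1 hashtag, with adjusted p-values up to 0.0699, 0.0734, 0.129 and 0.342.

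With depth matched, the leading genes kept their direction. Chemokine-high cells had a median of 5421 UMIs, and 480 singlets that pass both exclusions, 5 per chemokine-high cell and drawn within the same hashtag, had a median of 5435. Against these, 37 of 1979 tested genes passed (1.87%), 33 of them among the 99. Among cells with 0 UMIs of the 5 immediate early genes of the rule, 21 of the 96, only 9 genes passed, all higher and all among the 99. Oil hashtags alone gave 47 calls and TAM hashtags alone, with 17 cells, 23 calls. Without Oil5 57 genes passed, all among the 99.

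Levels also differed by the size of the chemokine count. In cells that pass both exclusions, pooled over hashtags and given without a test, Cd83 was at 60, 110, 117, 244 and 552 CPM at sums of 0 (6403 cells), 1 to 2 (412), 3 to 4 (71), 5 to 9 (67) and 10 or more (29). Siglech was at 1740, 1690, 1640, 1280 and 1070 CPM, and Tmem119 at 1060, 970, 1010, 927 and 466 CPM over the same steps. Cd83 was already above its level at 0 in cells of 1 to 2 UMIs, whereas the largest step of Tmem119 was between 5 to 9 and 10 or more. The 94 cells left out for immediate early counts had Cd83 at 495 CPM and Siglech at 1290 CPM, and 749 cells with high immediate early but low chemokine counts had 91.7 and 1660 CPM. The 29 chemokine-high cells of 10 or more had Cd9 at 2030 CPM, Apoe at 588 CPM and P2ry12 at 1970 CPM, against 2860, 2760 and 760 CPM in the 13 cells left out for the Lpl set.

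**Figure D5:**
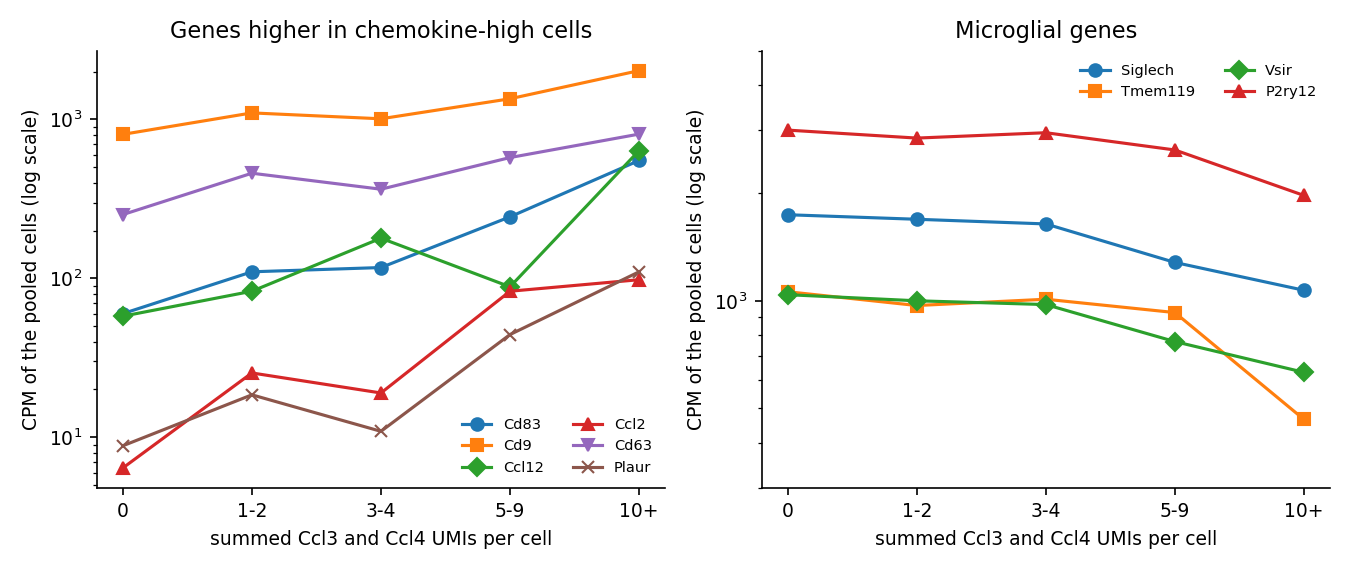
Pooled level (CPM, log axis) of genes in cells grouped by summed Ccl3 and Ccl4 UMIs, for cells that pass both exclusions. Cd83 is at 60 CPM at a sum of 0 and 552 CPM at 10 or more (left), and Siglech is at 1740 and 1070 CPM (right).

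The cells' neighbours in overall expression are given as a description. Among each cell's 15 nearest neighbours on 30 principal components of 2000 variable genes, without chemokine ligands and the 11 genes of the rule, 4.79% were chemokine-high for chemokine-high cells and 1.37% for other singlets. No chemokine-high neighbour was found for 56 of the 96 cells, and the most was 6 of 15. Cells left out with a high chemokine count made up 5.49% of the neighbours of chemokine-high cells and 1.07% of those of other singlets. Cells with 5 or more immediate early UMIs made up 19.9% of the neighbours of chemokine-high cells and 9.63% of those of other singlets. Of the 96 cells 79 were Oil cells, and neighbours were not compared within hashtags. The share of immediate early high cells was 2.86 to 47.7% in Oil and 0.247 to 2.07% in TAM hashtags. The part of hashtag makeup in these neighbour percentages was not tested.

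TAM and Oil were also compared within the chemokine-high cells, 17 against 79. By edgeR's quasi-likelihood test 0 of 564 genes passed (0%), with 42 at an unadjusted p below 0.05, and DESeq2 also called 0. The 3 genes of smallest p in each direction did not pass. Snx24 (663 CPM in TAM, 294 CPM in Oil, log2 fold change 1.14 ± 0.29), P2ry6, a UDP receptor (497 and 245 CPM, 1.05 ± 0.29), and Cadm1, an adhesion molecule (704 and 313 CPM, 1.11 ± 0.32), had higher values in TAM. Junb (228 CPM in TAM, 526 CPM in Oil, -1.19 ± 0.33), the RNA helicase Ddx5 (507 and 993 CPM, -0.94 ± 0.27) and Jun (507 and 1310 CPM, -1.28 ± 0.40) had lower values in TAM, with adjusted p-values of 0.211 to 0.339 for the 6 genes. Every TAM hashtag and Oil5 held fewer than 10 chemokine-high cells, and 564 genes had counts enough to test.

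The test of whether the TAM effect differed between chemokine-high and other cells called 2 of 10057 genes (0.0199%), both through few cells. Ccl2 had an effect higher by 3.16 ± 0.56 on the log2 scale (adjusted p = 2.13e-04), which was 0.16 without TAM4 (adjusted p = 0.994). Klf2, a transcription factor that holds back inflammatory activation, was at 307, 0, 295, 125 and 0 CPM in chemokine-high cells of TAM1 to TAM5 and 196, 81.6, 50, 11 and 47.0 CPM in those of Oil1 to Oil5, against 12.6 to 35.3 CPM and 23.0 to 172 CPM in the other TAM and Oil cells. Its difference of 2.99 ± 0.63 (adjusted p = 0.00877) did not pass without TAM1 (2.80, adjusted p = 0.294) or TAM3 (2.39, adjusted p = 0.923). DESeq2 called 0 genes, with 247 at an unadjusted p below 0.05.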

How the data were processed

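The authors deposited raw UMI counts of genes and hashtags in 1 matrix. Per the file headers it came from Cell Ranger 7.0.0, and the submitters' processing notes name the build mm10. Libraries were 10x Genomics 3′ v3.1 per the labels' protocols. The annotation is not given in the sources used here, nor is the counting of reads that match several gene copies, so Olfr110 and Olfr111, the Bcl2a1 copies, Ifit3 and Ifitm3 are uncertain. HTODemux (Seurat 5.3.0, quantile 0.99) split the barcodes by hashtag: 8055 singlets, 1737 doublets, which were left out, and 183 negatives of 9975 barcodes with 32285 genes. Doublets of 1 hashtag stay in. Singlets of the stated filters numbered 7903, with 39624357 gene UMIs, 524560 of them in the 96 cells.

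Shares were compared by exact permutation over hashtags. Counts summed per hashtag and class were tested with edgeR 4.0.16 (filterByExpr, quasi-likelihood, Benjamini-Hochberg at 0.05), with DESeq2 1.42.0 as an alternative. The count filter took the sums of both classes, and in a small chemokine-high sum 1 UMI can reach its level. Gas2l3, Ccl2, Tnf, Ifit3, Ifi204 and H2-Eb1 were among the genes that met the filter only with the chemokine-high sums. The design had named TMM per summed library. On simulated counts that scaling was biased for sums of few cells, so TMM was taken from pooled sums of a class, or of a treatment within chemokine-high cells, with the first scaling as an alternative. The simulation drew all sums with a fixed dispersion, while real sums of few cells can rest on a single cell. It therefore does not settle which scaling suits the real sums. Some fits paired hashtags of the same number. Same-numbered TAM and Oil sums deviated together, with r of 0.298 to 0.646 over 6358 genes, but sums of different numbers were not compared. Hashtags of the same number also had the same sex, so whether the numbers mark pairs was not settled. Paired fits are given where they change a call.

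Members and gene lists were chosen with earlier results of these data known. Named genes are up to 10 in each direction, by p-value, that passed and moved alike in 10 of 10 hashtags, without Gm, Rik, Rpl, Rps and mt- genes, every tested chemokine ligand, and up to 4 per other list with the smallest p. Between treatments they are those with the smallest p. Positions are from GENCODE M21 (GRCm38) and sequences from RefSeq.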

Additional observations from a re-analysis of the deposited data

Results flagged for a closer look

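Among chemokine-high cells, single hashtags lay far from the other 4 of their treatment for 10 genes. In each treatment the screen covered cell shares, Ccl3 and Ccl4 levels and the named genes that moved alike in all 10 hashtags. Its rate of about 1 in 20 groups by chance holds for normally distributed values, which sums of 2 to 27 cells need not be. TAM4, with 2 cells, was far above TAM1, TAM2, TAM3 and TAM5 in Ccl4 (12500 CPM), Ccl3 (2000 CPM), Cd83 (1370 CPM) and Eif4a1 (999 CPM). Oil5, with 7 cells, was far above the other Oil hashtags in Cd83 (1320 CPM), Cd9 (2350 CPM) and Ctsb (2630 CPM), and far below them in Frmd4a (494 CPM) and Fchsd2 (447 CPM). Oil1 was highest in Id2 (285 CPM). Oil3 held the sole Tlr12 UMI of the Oil hashtags (7.15 CPM), so that flag follows by itself.

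For 2 genes the TAM effect in chemokine-high cells differed from that in other singlets by edgeR's test of the difference. It was higher by 3.16 on the log2 scale for Ccl2 and by 2.99 for Klf2. For Ccl2 23 of 27 UMIs of the chemokine-high TAM cells were in TAM4, and without TAM4 the difference was 0.16. For Klf2 7 of 15 such UMIs each were in TAM1 and TAM3.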

How the results depend on the processing

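The lower share in TAM kept its direction under every alternative run. Leaving out each hashtag gave -1.9 to -1.36 points. It missed the threshold in male hashtags alone (-1.55), in female hashtags alone (-1.63) and with the replicate block (-1.6), designs that cannot pass. Against other singlets, the 99 calls became 170 with TMM per summed library, 39 with DESeq2, 37 with the reference matched in UMIs, 9 in cells at 0 of the 5 immediate early genes, 47 in Oil hashtags alone and 23 in TAM hashtags alone, and 57 to 99 without each hashtag. Within chemokine-high cells TAM against Oil gave 4 calls without a filter on low counts, 1 with the replicate block, and 0 to 1 without each hashtag, 1 without TAM4. The difference of effects gave 13 calls with TMM per summed library, 0 with DESeq2, and 1 to 3 without each hashtag.

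Over all singlets Ccl4 passed with the replicate block (-0.79), which changed no other call beyond those given, and in singlets passing both exclusions (-2.08), as did Ccl3 there (-1.86), but those exclusions belong to the rule, and 107 of the cells they remove held 60.3% of Ccl4 and 55.6% of Ccl3 UMIs. Both reversed with the immediate early covariate (0.55 for Ccl3, 0.39 for Ccl4), a level that this design can hardly separate from treatment. Ccl25, not called, reversed without a filter (-0.0055), with TMM per summed library (-0.17), at the stricter hashtag quantile (-0.025), in cells at 0 of the immediate early genes (-0.39), in TAM alone (-0.65), and lay at -0.071 to 0.16 without each hashtag. Ccl9 reversed in cells at 0 of the immediate early genes (-0.35). Tnf (-0.38), Gpr84 (-1.08) and Ifi204 (-0.23) reversed in TAM alone, and Ifit3 lay at -0.38 to 2.04 without each hashtag. The causes were not tested. Of 820 values of 38 named genes under alternatives, 682 kept direction and side of the threshold, 123 lost the call, 1 gained it and 14 reversed. The 17 TAM cells limit every value within TAM.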
